A study of Mus musculus with 48 samples.

Results

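Gc, Ttr, Serpina7, C1qtnf1, Clu and Nucb2 encode proteins that cells secrete, and their RNA was followed in α and β cells sorted from mouse pancreatic islets. They are 6 of the 42713 genes in the count tables and were picked by symbol because their RNA was higher in β cells of doxycycline-treated mice, so that difference is described here without a test. The working name for the 6, secreted proteins of α type, held for only some of them. In control mice Gc, Ttr and Clu were higher in α than in β cells without overlap between libraries. Serpina7 and C1qtnf1 were higher with overlapping libraries, and Nucb2 was lower in α cells. How many of all genes separate without overlap was not counted, so overlap only describes these levels.

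The animals were male mice aged 6 to 8 weeks that all carried the same transgenes. ProGcg-Venus and RIP-Cherry are fluorescent reporters by which the cells were sorted, and PER2::Luc reports the clock protein PER2 by light. Insulin-rtTA with TET-DTA forms an insulin-driven doxycycline switch for diphtheria toxin A. Treated mice drank 300 mg of doxycycline with 2% sucrose to ablate β cells on a large scale, and control mice of the same genotype drank 2% sucrose alone. The β libraries of treated mice therefore hold cells that could still be sorted after ablation. No group received doxycycline without the toxin gene, so the drug and the ablation cannot be told apart. All mice were fed at night only from 10 days before the experiment, and some were kept on inverted light and feeding cycles for 2 weeks. Cells were collected at zeitgeber times (ZT, hours after lights on) 0, 4, 8, 12, 16 and 20, with 2 libraries for each cell type, treatment and time, which gave 4 conditions of 12 libraries. The labels do not say that the duplicates came from separate animals, so p-values measure the spread between these libraries only. In bulk RNA, fewer cells of a type and less RNA per cell cannot be told apart.

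By the dates in their titles, 20 libraries belonged to an earlier run, with 16.1 to 28.6 M counts each (M for mega), and 28 to a later run, with 37.4 to 69.9 M. The earlier run held 5 libraries of each condition and none of ZT0. Levels are CPM, counts scaled to the size of the library with TMM factors, and levels of different genes are compared only as CPM per kilobase of gene model (CPM per kb). The sorts matched their labels: glucagon (Gcg) stood at 244366 to 384957 CPM in control α cells and 40.8 to 279 CPM in control β cells, and insulin 2 (Ins2) at 157819 to 295799 CPM in control β cells and 136 to 2675 CPM in control α cells. RNA of other cells was present as well. In control α cells the summed level of 2 PP and epsilon markers ran from 13555 to 34781 CPM (median 18865). That of 4 δ-cell markers had a median of 1954 CPM there. In doxycycline α cells the PP and epsilon median was 27770 CPM. The summed level of 11 acinar markers had a median of 205 CPM in control and 104 CPM in doxycycline α cells. In control and doxycycline β cells the medians were 40.2 and 12.4 CPM. The highest library reached 878 CPM in control and 6644.5 CPM in doxycycline α cells, and 242 and 4627 CPM in β cells. The summed level of 12 macrophage and dendritic markers ran from 49.3 to 338 CPM (median 160) in control β cells and from 114 to 1480 CPM (median 626) in doxycycline β cells, and none of the 12 was at 0 throughout.

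Several of these proteins are best known as blood proteins made by the liver. Transthyretin (Ttr) and thyroxine-binding globulin (Serpina7) carry thyroid hormone in plasma, and transthyretin also carries retinol through its partner Rbp4. Vitamin D-binding protein (Gc) carries vitamin D metabolites, clusterin (Clu) is an extracellular chaperone that also travels on lipoproteins, C1qtnf1 belongs to the secreted C1q and TNF related family, and nucleobindin 2 (Nucb2) is a calcium-binding protein from which the peptide nesfatin-1 is cut. In islets, transthyretin and vitamin D-binding protein are known as α-cell products.

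The 6 genes lie on different chromosomes. On GRCm38 Gc lies at chr5:89417522-89457898 and Serpina7 at chrX:139079257-139085236, both on the minus strand, and C1qtnf1 at chr11:118428203-118449963, Clu at chr14:65968483-65981547 and Nucb2 at chr7:116504369-116540584, all on the plus strand. The 250 bases before the transcription start, from the RefSeq promoter table (GRCm38.p6), are shown for 3 of them because the genes were higher together in the same cells. Promoters of C1qtnf1 and Clu were not in that table, and that of Ttr was not used here. Gc is read at chr5:89457899-89458148, Serpina7, before 1 of its 2 listed starts, at chrX:139085237-139085486 (both minus strand) and Nucb2 at chr7:116504119-116504368 (plus strand), each 5′ to 3′ toward the gene, with a motif match in capitals.
Gc: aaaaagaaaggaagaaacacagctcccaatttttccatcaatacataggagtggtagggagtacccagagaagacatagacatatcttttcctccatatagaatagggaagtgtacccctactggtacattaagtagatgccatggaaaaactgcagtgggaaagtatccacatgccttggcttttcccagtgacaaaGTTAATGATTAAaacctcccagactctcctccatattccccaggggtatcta
Serpina7: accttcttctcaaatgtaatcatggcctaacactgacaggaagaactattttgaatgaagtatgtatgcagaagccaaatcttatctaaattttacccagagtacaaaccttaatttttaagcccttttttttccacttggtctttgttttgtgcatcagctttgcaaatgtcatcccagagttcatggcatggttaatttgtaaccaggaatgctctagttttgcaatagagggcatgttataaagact
Nucb2: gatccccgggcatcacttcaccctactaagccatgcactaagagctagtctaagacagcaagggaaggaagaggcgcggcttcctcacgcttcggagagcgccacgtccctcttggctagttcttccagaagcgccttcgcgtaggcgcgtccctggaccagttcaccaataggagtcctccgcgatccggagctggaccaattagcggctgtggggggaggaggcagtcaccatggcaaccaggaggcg

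Searched on both strands were an E-box (CACGTG), a D-box (TTATGNAA), the ROR and REV-ERB core (AGGTCA), an HNF1 site, a FOX site (TGTTTAC) and the endoplasmic reticulum stress element. The Gc promoter held an HNF1 match, GTTAATGATTAA, that began 52 bases before the start, a pattern found in 0.0609% of 32851 promoters of this length. Neither the Serpina7 nor the Nucb2 window held any of the 6 patterns, 1 of which (AGGTCA) occurs in 14% of promoters and the others in 0.0609 to 6.02%. No promoter pattern was thus shared by the 3 genes. A match is a run of letters and says nothing of binding, and these windows differed in base composition as well: 42% G and C for Gc, 36% for Serpina7 and 60.8% for Nucb2.

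The carriers of thyroid hormone stood at very different levels. Ttr in control α cells had 4518, 7062 and 10763 CPM as its lowest, median and highest library. Control β cells gave 266, 437 and 614 CPM in the same order, and doxycycline β cells 968, 1827 and 2835 CPM. The lowest treated β library was thus above the highest control β library, and the highest treated β library was below every α library. The fitted log2 difference between doxycycline and control β cells was 2.05 ± 0.12 (SE, 12 libraries each). Group means in treated cells were 3.17 times (ZT12) to 5.05 times (ZT4) those in control cells.

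Serpina7 stood much lower, at 2.50, 13.0 and 42.1 CPM in control β cells. Doxycycline β cells had 39.6, 78.7 and 217 CPM, and control α cells had 11.7, 21.0 and 35.4 CPM. Serpina7 was the only member for which treated and control β libraries overlapped, and they did so only across times: the highest control library was from ZT8 and the lowest treated library from ZT16. At each of the 6 times both treated libraries were above both control libraries. Group means in treated cells were 5.62 times (ZT8) to 14.4 times (ZT16) those in control cells, and the fitted log2 difference was 2.96 ± 0.21.

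The vitamin D carrier Gc had 29.5, 60.0 and 102 CPM in control β cells, 229, 371 and 651 CPM in doxycycline β cells, and 353, 454 and 540 CPM in control α cells. Treated β libraries lay above all control β libraries and overlapped the α libraries. The log2 difference in β cells was 2.60 ± 0.14, and group means in treated cells were 4.16 times (ZT12) to 8.75 times (ZT4) those in control cells.

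The chaperone Clu had the smallest difference. It had 81.1, 110 and 128 CPM in control β cells, 195, 215 and 255 CPM in doxycycline β cells, and 151, 203 and 277 CPM in control α cells. The treated β libraries again cleared every control β library and sat inside the α range. Clu differed by 1.06 ± 0.06 on the log2 scale, with folds of group means from 1.84 at ZT20 to 2.28 at ZT0.

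C1qtnf1 had the lowest starting level and the largest difference. Its control β libraries ranged from 2.00 to 5.28 CPM around a median of 2.68, and its control α libraries from 2.51 to 6.71 CPM around 4.16. Doxycycline β cells had 26.4, 49.1 and 82.7 CPM, far above every library of the other 3 conditions, whose highest value was 7.28 CPM in doxycycline α cells. The log2 difference was 4.05 ± 0.19, and group means in treated cells were 9.60 times (ZT0) to 21.9 times (ZT16) those in control cells.

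Nucb2 was the exception to the α pattern. Control β cells had 151, 189 and 261 CPM, while control α cells had 45.5, 54.9 and 75.7 CPM. Doxycycline β cells lay still further from the α level, at 421, 538 and 744 CPM. Its log2 difference was 1.56 ± 0.09, and folds of group means ran from 2.29 at ZT12 to 3.33 at ZT8.

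**Figure D1:**
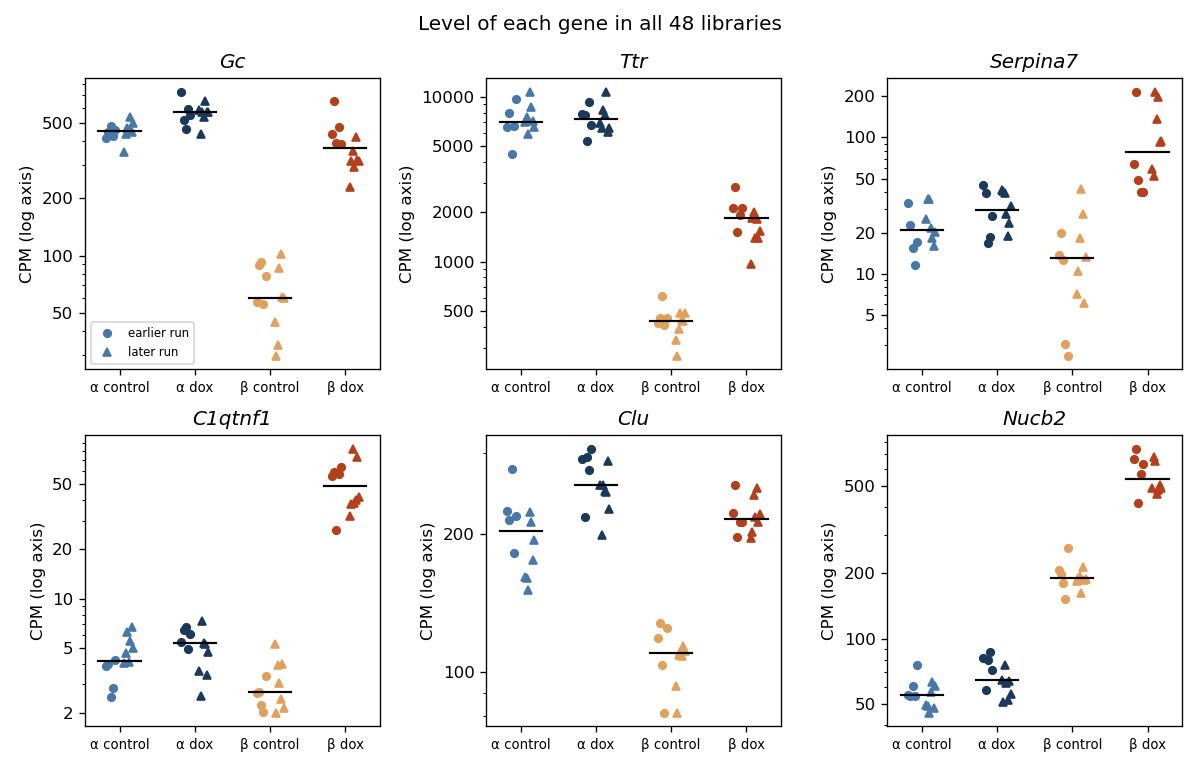
Level of the 6 genes in all 48 libraries (y axis, CPM on a log axis; x axis, the 4 conditions; circles, earlier run; triangles, later run; bars, median of 12). Doxycycline β libraries lie above all control β libraries for every gene but Serpina7, where 39.6 CPM (treated) meets 42.1 CPM (control). The genes were picked for this difference.

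In all, 46.9% of 15188 genes passed the threshold in this β comparison (edgeR quasi-likelihood test, Benjamini-Hochberg adjusted p under 0.05), 23.8% as higher in doxycycline cells. As the 6 genes were chosen by this contrast, nothing is read from their count of 6 or from the lack of overlap between libraries. Both runs gave like sizes. In the earlier run alone the log2 differences were 2.69 for Gc, 2.17 for Ttr, 3.01 for Serpina7, 4.34 for C1qtnf1, 1.03 for Clu and 1.63 for Nucb2. In the later run alone they were 2.54, 1.96, 2.88, 3.88, 1.10 and 1.51 in the same order. No member passed the test for a different doxycycline effect between runs in β cells, where 7 genes (0.0461%) did, nor the test for a different effect between times. In the latter test edgeR called 0 of 15188 genes (0%), 394 had an unadjusted p under 0.05 and DESeq2 called 10.

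**Figure D2:**
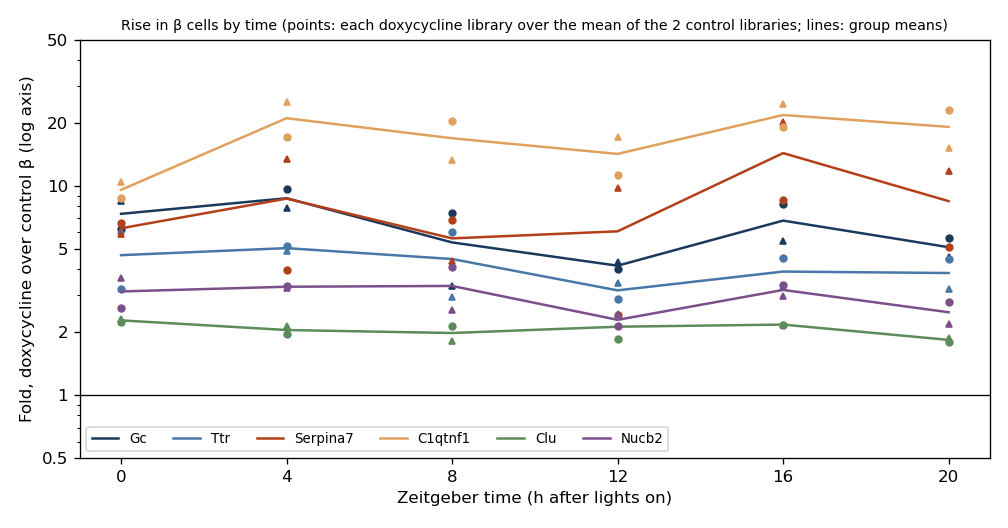
Doxycycline over control level in β cells (y axis, fold on a log axis) at each zeitgeber time (x axis, hours). Points are each treated library (circles, replicate 1; triangles, replicate 2) over the mean of the 2 control libraries and lines join the folds of group means. All points lie above 1, with Clu lowest (1.84 to 2.28 for the means) and C1qtnf1 highest (9.60 to 21.9).

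Ranked by level per length, the genes stood in the same order in control and doxycycline β cells. Control β cells had 356 CPM per kb of Ttr, 82.8 of Nucb2, 35.6 of Gc, 31.1 of Clu, 6.04 of Serpina7 and 0.953 of C1qtnf1 (means, n = 12). The SDs were 70.1, 11.8, 12.9, 4.38, 4.61 and 0.317 CPM per kb, so Gc and Clu were the neighbours whose mean ± SD overlapped. Doxycycline β cells had 1464 ± 391 CPM per kb of Ttr, 243 ± 45.1 of Nucb2, 207 ± 59.2 of Gc, 64.0 ± 5.86 of Clu, 42.7 ± 28.1 of Serpina7 and 16.2 ± 5.56 of C1qtnf1 (SD, n = 12). Here Gc stood clear of Clu, and the overlapping neighbours were Nucb2 and Gc, Clu and Serpina7, and Serpina7 and C1qtnf1. Control α cells had another order, with 6084 ± 1393 CPM per kb of Ttr, 245 ± 24.9 of Gc, 58.0 ± 10.5 of Clu, 24.1 ± 3.55 of Nucb2, 9.28 ± 3.28 of Serpina7 and 1.43 ± 0.400 of C1qtnf1 (SD, n = 12), and no neighbours overlapped there.

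Several markers of other cells moved with the treatment in β libraries, where 23.8% of all genes tested were higher. All 12 macrophage and dendritic markers were higher in doxycycline β cells, with a median log2 difference of 2.19, against a median of -0.0071 over all genes tested. Of 8 stellate and fibroblast markers, 7 could be tested and 4 were higher, and their summed level went from a median of 9.47 CPM to 29.2 CPM. Of 4 δ-cell markers 3 were higher, with a median log2 difference of 0.59, and their summed level ran from 278 to 931 CPM (median 541) in control and from 524 to 1378 CPM (median 878) in doxycycline β cells. The 1 marker of PP and epsilon cells that could be tested was higher at 1.02, and the summed level of the 2 on the list went from a median of 46.3 CPM to 105 CPM. For acinar cells 1 of 10 tested markers was higher, for endothelial cells 0 of 3, for Schwann cells 1 of 3 and for liver 2 of 5. Of 6 tested duct markers 2 were higher and 1 was lower. The part of the RNA of these other cells in the members' differences was not tested. With the macrophage marker mean as an added term, the member differences were 2.85 for Gc, 2.45 for Ttr and 3.15 for Serpina7. They were 4.09 for C1qtnf1, 1.09 for Clu and 1.61 for Nucb2. The macrophage markers were themselves higher after doxycycline, so this fit cannot separate them from the treatment.

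The α-cell markers were measured in the β libraries in the same way, and the part of α RNA in the members' differences was not tested. Doxycycline β cells held 0.0779% of the control α level of Gcg, the glucagon gene, after 0.0562% in control β cells. For the transcription factors Irx1, Irx2 and Pou3f4 the percentages were 0.134 after 0.0866, 1.20 after 0.472 and 0.874 after 0.473. The amino acid transporter Slc38a5 went from 2.60 to 12.7% and Slc7a2 from 27.8 to 17.2%. Among the secreted proteins Gc went from 14.5 to 84.4% of the control α level and Ttr from 5.85 to 24.1%, so that in control β cells both lay below Slc7a2. Clu passed the α level, from 53.6 to 110%, and Serpina7 passed it widely, from 65.1 to 460%. C1qtnf1 went from 66.6 to 1135%, and Nucb2, already at 344%, reached 1008%.

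**Figure D3:**
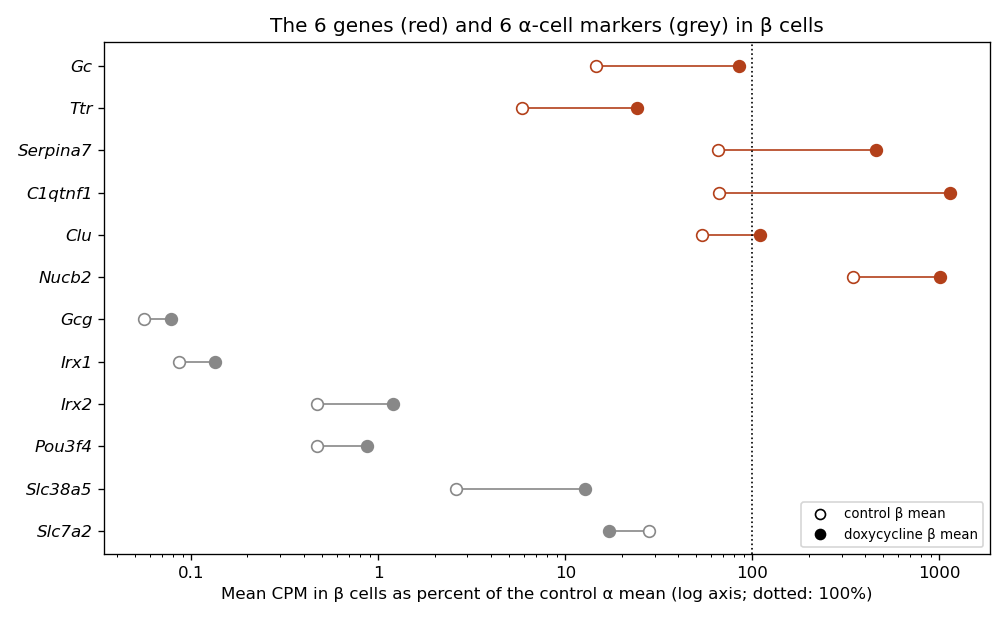
Mean level in control (open) and doxycycline (filled) β cells as a percentage of the mean in control α cells (x axis, log; n = 12 libraries each) for the 6 genes (red) and 6 α-cell markers (grey). Gc, Ttr and Clu end at 84.4, 24.1 and 110%, and the markers end between 0.0779 and 17.2%.

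In control mice, α cells were set against β cells over 24 libraries, with the control β libraries shared with the choice of members. In this comparison 71.4% of 14945 genes passed, 37.3% as higher and 34.2% as lower in α cells, so a call by itself is common. The members are described here with no test, because their levels in the control β libraries took part in the choice. The log2 difference of α over β was 4.13 ± 0.13 for Ttr, 2.89 ± 0.13 for Gc and 0.91 ± 0.07 for Clu. It was 0.92 ± 0.25 for Serpina7 and 0.60 ± 0.16 for C1qtnf1. Nucb2 was lower in α cells, at -1.76 ± 0.07. The C1qtnf1 difference was 0.42 in the earlier run alone, and that of Serpina7 was 0.72 in the later run alone.

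After doxycycline the same comparison gave a different picture, with the doxycycline β libraries shared with the choice of members and 71.2% of 15370 genes called (35.7% higher and 35.6% lower in α cells). Ttr stayed 2.08 ± 0.14 higher in α cells on the log2 scale and Gc 0.58 ± 0.11. Clu was 0.22 ± 0.07 higher in α cells. The other 3 genes lay on the opposite side: Serpina7 was lower in α cells at -1.63 ± 0.26, C1qtnf1 at -3.31 ± 0.16 and Nucb2 at -3.10 ± 0.09. These differences are given as a description with no test, because high levels in the doxycycline β libraries were what chose the members. Gc stood at 0.29 in the earlier run alone and Clu at 0.15 in the later run alone.

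**Figure D4:**
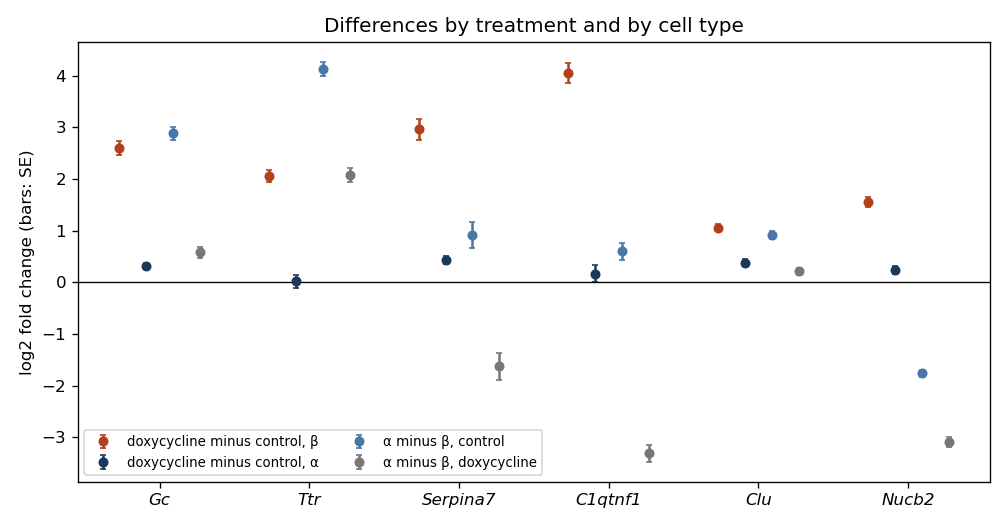
Fitted log2 differences (y axis; bars, SE) of each gene (x axis) for doxycycline minus control in β and α cells and for α minus β cells in control and in doxycycline mice (24 libraries per comparison). Serpina7 and C1qtnf1 are above 0 for α minus β in control mice (0.92 and 0.60) and below 0 after doxycycline (-1.63 and -3.31).

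The α libraries had no part in choosing the members, so doxycycline could be tested there. Few genes responded: 19 of 14932 passed (0.127%), 12 of them higher (0.0804%) and 7 lower (0.0469%). Serpina7 and Clu were among those 12. Serpina7 had 11.7, 21.0 and 35.4 CPM in control α cells and 16.8, 29.4 and 44.6 CPM in doxycycline α cells as lowest, median and highest of 12. Its libraries overlapped between treatments, yet at 5 of 6 times both treated libraries exceeded both controls. The log2 difference was 0.43 ± 0.08 (edgeR adjusted p 0.0315). Clu had 151, 203 and 277 CPM in control and 199, 256 and 307 CPM in doxycycline α cells, and both treated libraries exceeded both controls at 4 of 6 times. Its log2 difference was 0.38 ± 0.08 (edgeR adjusted p 0.0447). How many of all genes exceed their controls at as many times was not counted.

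Gc followed close behind without passing, at 0.31 ± 0.06 (edgeR adjusted p 0.0534; DESeq2 adjusted p 0.000903). Its α libraries had 353, 454 and 540 CPM in control and 434, 570 and 731 CPM in doxycycline mice. The remaining members did not pass: Nucb2 at 0.24 ± 0.08, C1qtnf1 at 0.17 ± 0.16 and Ttr at 0.02 ± 0.12 (edgeR adjusted p 0.344, 0.906 and 0.990). The median over the 6 was 0.28, against -0.0017 over all genes tested. Both calls depended on the setting. In the later run alone Serpina7 was at 0.37 (edgeR adjusted p 0.960) and Clu at 0.44 (0.851), and with the macrophage term they were at 0.40 (0.223) and 0.33 (0.296). The summed macrophage markers had a median of 69.7 CPM in control and 78.0 CPM in doxycycline α cells. Of the 12 markers 9 could be tested in α cells. Their median log2 difference was 0.69, and 0 passed. The macrophage term was the mean log2 CPM of the markers and not their sum. Clu also missed the threshold in the earlier run alone (0.31, edgeR adjusted p 0.179) and with no run term (0.38, 0.0979).

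Single libraries decided these α calls too. Serpina7 lost its call without any of 11 of 24 libraries: replicate 1 of doxycycline ZT0 and ZT4, either control replicate of ZT8, replicate 1 of control ZT16, either control replicate of ZT20, and either doxycycline replicate of ZT16 and ZT20. The 24 fits gave 0.38 to 0.47 (edgeR adjusted p 0.0214 to 0.0827). Clu kept its call only without replicate 2 of doxycycline ZT0, ZT12 or ZT20, replicate 1 of control ZT4 or ZT12, replicate 2 of control ZT8 or replicate 1 of doxycycline ZT8, and lost it without any of the other 17. All 24 fits gave 0.35 to 0.42 (edgeR adjusted p 0.0188 to 0.111). Gc gained a call without replicate 2 of doxycycline ZT0 or replicate 1 of doxycycline ZT12, within 0.27 to 0.35 (edgeR adjusted p 0.0160 to 0.117).

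The α levels of C1qtnf1 are given for each run. In the earlier run it averaged 3.50 ± 0.763 CPM in control and 5.91 ± 0.719 CPM in doxycycline cells (SD, n = 5). In the later run it averaged 5.19 ± 1.05 and 4.61 ± 1.57 CPM (SD, n = 7). The difference of the doxycycline effect between runs was -0.98 ± 0.25 on the log2 scale and did not pass over all genes (edgeR adjusted p 0.274, unadjusted 0.000917), where 17 of 14932 did (0.114%). No other member passed this test either, and none passed the test for a different effect between times in α cells, in which edgeR called 0 genes, 196 had an unadjusted p under 0.05 and DESeq2 called 5.

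Serpina7 passed the test for a daily rhythm in all 4 conditions. The rhythm was fitted with sine and cosine terms of a 24 h period, with amplitude as the log2 distance from mean to peak. In control β cells both libraries were high at ZT8, with 19.98 and 42.14 CPM, and low at ZT16, with 3.07 and 6.18 CPM. The ZT20 libraries lay apart, at 2.50 and 13.2 CPM. The amplitude was 1.28 ± 0.20 with a peak at 7.92 ± 0.58 h (SE; edgeR adjusted p 0.0203), in a condition where 2.17% of 13302 genes passed. In doxycycline β cells the ZT8 libraries had 214 and 136 CPM and the ZT16 libraries 39.6 and 93.3 CPM. That amplitude was 0.92 ± 0.23 with a peak at 8.36 ± 0.94 h (edgeR adjusted p 0.0450), where 11.6% of 13613 genes passed.

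The fitted peaks of Serpina7 came earlier in α cells. Peak time was not tested by itself, and edgeR's joint test of amplitude and peak did not pass over all genes. Control α libraries had 33.1 and 35.2 CPM at ZT4 and 11.7 and 16.1 CPM at ZT16. The amplitude was 0.63 ± 0.07 and the peak at 3.11 ± 0.41 h (edgeR adjusted p 0.00117), where 4.49% of 13349 genes passed. Doxycycline α libraries had 44.6 and 39.2 CPM at ZT4 and were lowest at ZT12, with 16.8 and 18.9 CPM. Their amplitude was 0.62 ± 0.09 and their peak at 2.16 ± 0.52 h (edgeR adjusted p 0.00877), where 2.82% of 13280 genes passed.

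**Figure D5:**
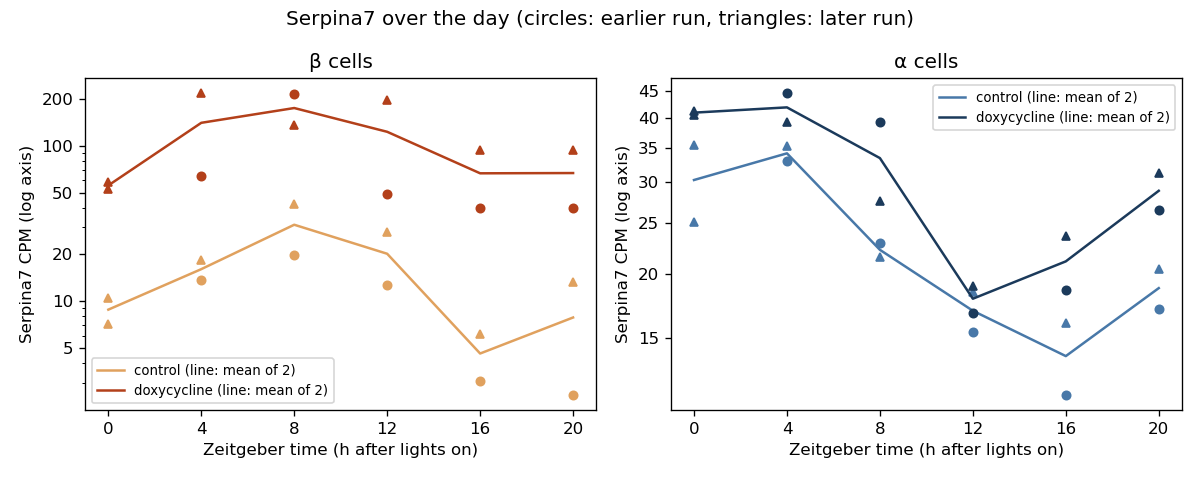
Serpina7 level (y axis, CPM on log axes that differ between panels) by zeitgeber time (x axis, hours) in β cells (left) and α cells (right); points are libraries (circles, earlier run; triangles, later run) and lines join means of 2. Fitted peaks were at 7.92 and 8.36 h in control and doxycycline β cells and at 3.11 and 2.16 h in control and doxycycline α cells.

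The α rhythms of Serpina7 kept their call without any single library, whereas the β rhythms did not. In control β cells the call was lost without replicate 1 of ZT16, replicate 1 of ZT20 or either replicate of ZT8 (amplitudes of 1.20 to 1.62 over all 12 left-out fits, edgeR adjusted p 0.00137 to 0.0682). It was lost also when the run term was dropped (1.13, edgeR adjusted p 0.0906). In doxycycline β cells it was kept only without replicate 1 of ZT0 or replicate 2 of ZT20 and lost without any of the other 10 libraries (0.65 to 1.07 over all 12, edgeR adjusted p 0.0483 to 0.136). The doxycycline β call was also lost with the replicate number as a block (0.85, edgeR adjusted p 0.0684), with no run term (0.81, 0.177), with no filter on low counts (0.92, 0.0502) and with 6 separate time levels (0.281). With 6 time levels the doxycycline α call was lost as well (edgeR adjusted p 0.160).

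Rhythms were not shown to differ between treatments. For Serpina7 the difference between doxycycline and control had an edgeR adjusted p of 0.999 in β and in α cells. Over all genes edgeR called 0 in each cell type, with 708 (β) and 377 (α) at an unadjusted p under 0.05, and DESeq2 called 3 and 0. The comparison of α with β rhythms was added after the values had been seen. It tests the sine and cosine terms together, so differences in amplitude and in peak time are not told apart. The amplitude given is that of the difference between the fitted waves. Serpina7 differed by an amplitude of 1.25 ± 0.23 in control mice (edgeR adjusted p 0.119, unadjusted 8.31e-05; DESeq2 adjusted p 0.000619) and by 1.13 ± 0.26 after doxycycline (edgeR adjusted p 0.196). In control mice edgeR called 0 genes, 946 had an unadjusted p under 0.05 and DESeq2 called 104. After doxycycline 10 genes passed (0.0651%). The control difference of Serpina7 passed without replicate 2 of control β ZT20 (1.56, edgeR adjusted p 5.0e-05). The other 5 members had no called rhythm in any condition. Gc in control β cells came nearest, with an amplitude of 0.56 ± 0.14 (edgeR adjusted p 0.0887; DESeq2 adjusted p 0.00684).

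Genes tied to the 6 proteins by role, family or kind of secreted protein were listed and counted in the same β comparison. Many of them are not known partners of the 6. In this comparison 23.8% of all genes were higher and 23.1% lower. Over these lists 44 of 74 genes were tested, 23 were higher and 6 lower in doxycycline β cells. In the earlier run alone 15 were higher and 5 lower of 40 tested, in the later run alone 16 and 3 of 44, and with the macrophage term 14 and 4 of 44. In α cells edgeR called 0 of 46, 6 had an unadjusted p under 0.05, and DESeq2 called 1.

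Among 8 tested genes of thyroid hormone handling, 4 were higher and 2 lower, with a median log2 difference of 0.20. The count of higher genes fell to 0 of 8 in the earlier run alone, to 1 under the macrophage term and to 2 in the later run alone, and 1 gene was lower in each of these. The thyroid hormone receptors Thra and Thrb were lower at -0.83 ± 0.12 and -0.31 ± 0.08, and the hormone transporter Slc16a10 was higher at 0.26 ± 0.08 (edgeR adjusted p 1.20e-05, 0.00320 and 0.0112). With the macrophage term Thrb (-0.29, edgeR adjusted p 0.125) and Slc16a10 (0.29, 0.122) missed the threshold, as they did in the earlier run alone. Over 9 alternative settings Thrb kept its call in 5 and Slc16a10 in 6.

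Of 5 tested vitamin D genes 3 were higher and 1 lower. The vitamin D receptor Vdr was lower at -0.46 ± 0.06 (edgeR adjusted p 5.28e-06). Pdia3, a disulfide isomerase of the endoplasmic reticulum, was higher at 0.27 ± 0.07, and the hydroxylases Cyp27a1 and Cyp27b1 at 1.58 ± 0.34 and 1.10 ± 0.37, with means of about 1 CPM or less in treated cells (1.04 and 0.760 CPM). With the macrophage term Cyp27a1 stood at -0.05 (edgeR adjusted p 0.948) and Cyp27b1 at 0.91 (0.245). Cyp27b1 missed the threshold in the earlier run alone (0.96, edgeR adjusted p 0.350) and Cyp27a1 in the later run alone (1.16, 0.0667). Pdia3 missed it in each run alone (edgeR adjusted p 0.0603 and 0.0616).

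Of 6 tested retinol and lipid carriers 2 were higher. Of these Rbp4 is also on the list of δ-cell markers above, and the part of δ-cell RNA in its difference was not tested. Rbp4, the retinol carrier that binds transthyretin, went from 18.5 ± 4.20 to 28.5 ± 5.85 CPM (SD, n = 12) in β cells, a log2 difference of 0.64 ± 0.10 (edgeR adjusted p 3.33e-05). Like Ttr, Rbp4 was higher in α than in β cells of control mice, by 4.87 ± 0.12 (edgeR adjusted p 4.73e-19). The apolipoprotein Apoe was higher at 2.49 ± 0.42 and fell below the threshold with the macrophage term (0.24, edgeR adjusted p 0.483).

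The list of clusterin partners and chaperones split, 4 higher and 2 lower of 7 tested. The lipoprotein receptor Vldlr was lower at -0.99 ± 0.10, and the receptor Lrp1 was higher at 1.38 ± 0.20 (edgeR adjusted p 2.93e-07 and 1.16e-05). Lrp1 missed the threshold with the macrophage term (0.37, edgeR adjusted p 0.186). The endoplasmic reticulum chaperones Sdf2l1 and Hspa5 were higher at 0.84 ± 0.13 and 0.73 ± 0.13 (edgeR adjusted p 2.32e-05 and 0.000142).

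Of 7 nucleobindin relatives and other calcium-binding secretory proteins 4 were higher and the other 3 did not pass. Nucb1, the paralog of Nucb2, was higher at 0.86 ± 0.06, Sdf4 at 0.46 ± 0.06, Rcn1 at 0.62 ± 0.08 and Rcn3 at 1.81 ± 0.27 (edgeR adjusted p 5.50e-09, 2.53e-06, 4.75e-06 and 1.71e-05). The count of 4 was the same in each run alone and with the macrophage term. Unlike Nucb2, Nucb1 was higher in α than in β cells of control mice, by 0.99 ± 0.06 (edgeR adjusted p 1.67e-12).

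The C1q and TNF related family mostly stayed under the filter on low counts, with 3 of 13 relatives of C1qtnf1 tested. C1qtnf6 was higher at 0.31 ± 0.09 and C1qtnf4 lower at -0.39 ± 0.12 (edgeR adjusted p 0.00794 and 0.0119). Neither passed in the later run alone (edgeR adjusted p 0.395 and 0.362), and C1qtnf6 did not with the macrophage term (0.25, 0.243).

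Of 9 tested liver plasma proteins, a list of further genes typical of liver secretion, 5 were higher and the other 4 did not pass. Apob was higher at 2.56 ± 0.30, Apoa1 at 3.03 ± 0.64, Apoa2 at 1.29 ± 0.22 and Ambp at 0.69 ± 0.09 (edgeR adjusted p 1.30e-06, 0.000613, 0.000101 and 5.80e-06). Their treated means stayed low, from 1.29 CPM for Apoa1 to 13.7 CPM for Ambp. Among the 8 α-cell markers 5 could be tested in β cells, and Slc38a5 (2.37 ± 0.24), Irx2 (1.39 ± 0.26) and Gcg (0.50 ± 0.19) were higher while Slc7a2 was lower (-0.72 ± 0.12). Gcg passed narrowly (edgeR adjusted p 0.0363) and missed the threshold in the later run alone (0.35, edgeR adjusted p 0.424) and with the macrophage term (0.36, 0.479). Gcg also lost its call without any of 11 of 24 libraries: replicate 1 of control ZT4, ZT12, ZT16 and ZT20, replicate 2 of control ZT8, replicate 1 of doxycycline ZT0, ZT4, ZT8, ZT12 and ZT20, and replicate 2 of doxycycline ZT16. The 24 fits gave 0.41 to 0.63 (edgeR adjusted p 0.0106 to 0.0829).

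The 6 genes did not follow each other closely. Over the 24 group means of log2 CPM, which share libraries, cell types and treatments, Pearson's r was 0.94 between Gc and Clu and 0.91 between Gc and Ttr, but -0.64 between Ttr and Nucb2 and -0.00088 between Ttr and C1qtnf1. Among 14250 genes the patterns most like Gc were those of Cav2, Rasgrf2 and Prdx4 (r from 0.967 to 0.974), and those most like Ttr were Agpat4, Serpine2 and Gpx3 (0.986 to 0.987). Egf, Cybrd1 and Sez6 came nearest to Serpina7 (0.884 to 0.913), and Anxa10, Mdga1 and Chgb to C1qtnf1 (0.940 to 0.957). Clu was most like Gc, Prdx4 and Nucb1 (0.937 to 0.945), and Nucb2 most like Ormdl3, Cgref1 and Dcx (0.985 to 0.987).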

How the data were processed

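Polyadenylated RNA of sorted α and β cells was sequenced in 48 libraries, and the authors aligned reads with STAR to GRCm38, per the submitters' processing notes. The deposited values are estimated counts per gene in one table per run. The counting program is not given in the sources used here, and low whole values are nearly all even (99.7 to 100%), so 1 counted unit adds 2. The deposited RPKM tables were not used. All columns matched a label by title. Counts were rounded, filtered with filterByExpr (minimum count 10, minimum total 15), scaled by TMM and tested with edgeR 4.0.16 (quasi-likelihood F test, R 4.3.3), with time and run as terms and Benjamini-Hochberg adjustment over all genes (threshold 0.05). SE is the log2 difference over the square root of F, and for rhythms it comes from the delta method. CPM use TMM scaling over all libraries and log2 CPM a prior count of 2.

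The members, gene lists and tests were chosen with earlier results of these data known. Named are all members, the α markers, Gcg, Ins2, the 3 genes most like each member, and up to 4 genes of each list with the lowest p, except a few that are not reported here. Of 151 list symbols 150 were found. Alternatives were DESeq2 1.42.0, other scaling, no filter, a replicate block, no run term, each run alone, 6 time levels, a macrophage covariate and each library left out. On simulated counts (14830 genes) the doxycycline test in α cells recovered 85.1% of 1.5-fold and 100% of 2-fold changes, and the rhythm test in control β cells (13207 genes) 76% of amplitudes of 0.5. The doxycycline by time test in β cells (15080 genes) recovered 14.9% of 2-fold changes. The simulations changed only well-counted genes, took the spread from its trend over genes and held no run effect. Recovery in the real data may thus be lower. Replicates differed by 19.9 to 95.0 times counting noise (χ² per degree of freedom), and that includes the run.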

Additional observations from a re-analysis of the deposited data

How the results depend on the processing

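Counts of genes called depended on the settings more than the members' values did. Under DESeq2, the doxycycline comparison in α cells called 125 genes, with no filter on low counts 56, with no run term 12, in the earlier run alone 132, with the macrophage term 0 and in the later run alone 0 (868 and 740 at an unadjusted p under 0.05 by edgeR), against 19 as reported. In β cells it called 4638 in the earlier run alone, 3852 with the macrophage term and 3747 in the later run alone, against 7122. The doxycycline effect by time called 5 (DESeq2) and 74 (no filter) in α cells and 10 (DESeq2) in β cells. The effect by run called 52 (DESeq2) and 39 (no filter) in α cells and 87 and 33 in β cells. For the rhythms DESeq2 called 1317 in control β, 3014 in doxycycline β, 1518 in control α and 1178 in doxycycline α cells, and 6 time levels called 33, 0 (1876 at an unadjusted p under 0.05), 73 and 14. With no run term the counts were 328 in doxycycline β, 344 in control α and 166 in doxycycline α cells, and doxycycline β cells had 831 with no filter. Rhythm differences by treatment called 3 (DESeq2) and 1 (no filter) in β cells and 1 (no filter) in α cells. Those between α and β cells called 104 (DESeq2) and 3 (no filter) in control mice, and 187 (DESeq2) and 4 (no run term) after doxycycline.

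Replicate numbers were not taken to pair the samples. Deviations of same-numbered control and doxycycline libraries of a cell type correlated from -0.48 to 0.31, and below 0.1 at ZT0 and ZT4 in both cell types. Except at ZT0, the replicates of a group came from different runs, so these correlations include the run and cannot settle pairing. Same-numbered α and β libraries were not checked for pairing, and the fits across cell types treated them as unpaired. With the replicate number in place of the run, the test by run became a test of doxycycline by replicate number, a different quantity. It called 0 in α and 0 in β cells (1562 and 742 at an unadjusted p under 0.05 by edgeR). With the replicate number as a block, the doxycycline β rhythm called 688, and the α against β rhythm difference 1 in control and 4 in doxycycline mice. For C1qtnf1 in β cells the doxycycline by replicate number term was 0.23 (edgeR adjusted p 0.996). Its difference between runs was -0.44, and the 2 values do not measure the same thing.

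With each library left out, counts ran from 10511 to 10759 for α against β in control mice, 10767 to 11097 after doxycycline, 9 to 35 for doxycycline in α and 6731 to 7207 in β cells, 6 to 31 and 0 to 22 for the effect by run in α and β cells, 179 to 1141, 20 to 893, 41 to 560 and 112 to 2317 for rhythms in control α, control β, doxycycline α and doxycycline β cells, 0 to 1 for the rhythm difference in β cells, and 0 to 58 and 3 to 30 for that between cell types in control and doxycycline mice. Values near 0 changed sign, and so did that of Cyp27a1, which was not near 0. Ttr under doxycycline in α cells ran from -0.059 to 0.096, and was -0.015 in the later run alone (edgeR adjusted p 0.989), where C1qtnf1 was -0.21 (0.960). Cyp27a1 in β cells was higher by 1.32 to 1.73 with each library left out, but stood at -0.048 with the macrophage term (edgeR adjusted p 0.948). The difference between runs ran from -0.28 to 0.074 for Ttr and -0.14 to 0.066 for Gc in α cells, and from -0.31 to 0.13 for Serpina7 and -0.22 to 0.0036 for Nucb2 in β cells. No member's difference between α and β cells changed sign under any setting. The cause of these changes was not tested. Depth limits Serpina7 and C1qtnf1 most, as their lowest libraries held 2.50 and 2.00 CPM.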
